A study of Mus musculus with 6 samples.

Results

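Semaphorins, plexins, neuropilins, ephrins and Eph receptors, families of guidance ligands and their receptors, were examined in MC3T3-E1 cells, a mouse pre-osteoblast line, with and without metformin. The genes were selected by symbol and by a protein-coding biotype, with no use of their values. This gave 53 genes of the 54532 in the deposited table, namely 20 semaphorins, 9 plexins, 2 neuropilins, 5 A-type ephrins, 3 B-type ephrins, 9 EphA receptors and 5 EphB receptors. The control group (3 samples) was kept in osteogenic medium, which contains β-glycerophosphate, ascorbic acid and dexamethasone, and the metformin group (3 samples) was kept in the same medium with 0.2 mM metformin, a biguanide that lowers blood glucose. Dose and the 3 days of induction are those of the study's methods, as the labels name neither. The cells are 1 established line with no genetic change in either group. The p-values measure the spread between the 3 samples of a group, which the labels do not tie to separate cultures. The study's methods call these samples biological replicates. Because RNA was taken from whole cultures, fewer cells that express a gene and less of its RNA per cell cannot be told apart.

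Semaphorins are secreted or membrane-bound ligands, and plexins are their receptors, which act on small GTPases and the cytoskeleton. Neuropilins are co-receptors of most secreted class 3 semaphorins. Ephrins are ligands held at the cell surface, the A type by a lipid anchor and the B type by a transmembrane segment, and Eph receptors are receptor tyrosine kinases that bind them on neighbouring cells, with signals running into both cells. In bone, ephrin-B2 and EphB4, semaphorin 3A and neuropilin-1, and semaphorin 4D and plexin-B1 are known for signals between osteoblasts and osteoclasts.

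Of the 53 genes, 31 reached a mean of 0.5 FPKM (reads scaled by gene length and library size) and were tested, and 22 did not. Groups were compared by limma-trend on log2(FPKM + 1) over all 12681 genes that reached this level, with Benjamini-Hochberg adjustment and a threshold of 0.05. With metformin, 8 of the 31 were higher, against 13.2% of all tested genes, and 3 were lower, against 9.28%. The higher genes were Efnb2, Epha4, Plxnd1, Plxna3, Nrp2, Sema3f, Epha2 and Ephb2, and the lower genes were Sema7a, Efna1 and Sema4b. The median log2 fold change was 0.27 over the 31 genes and 0.0053 over all tested genes, and 21 of the 31 values were positive. For 16 of the 31, every metformin sample lay above every control sample, against 23.6% of all tested genes, and for 4 every metformin sample lay below, against 20.5%. Fold changes on the log2(FPKM + 1) scale understate the change of genes with low FPKM.

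**Figure D1:**
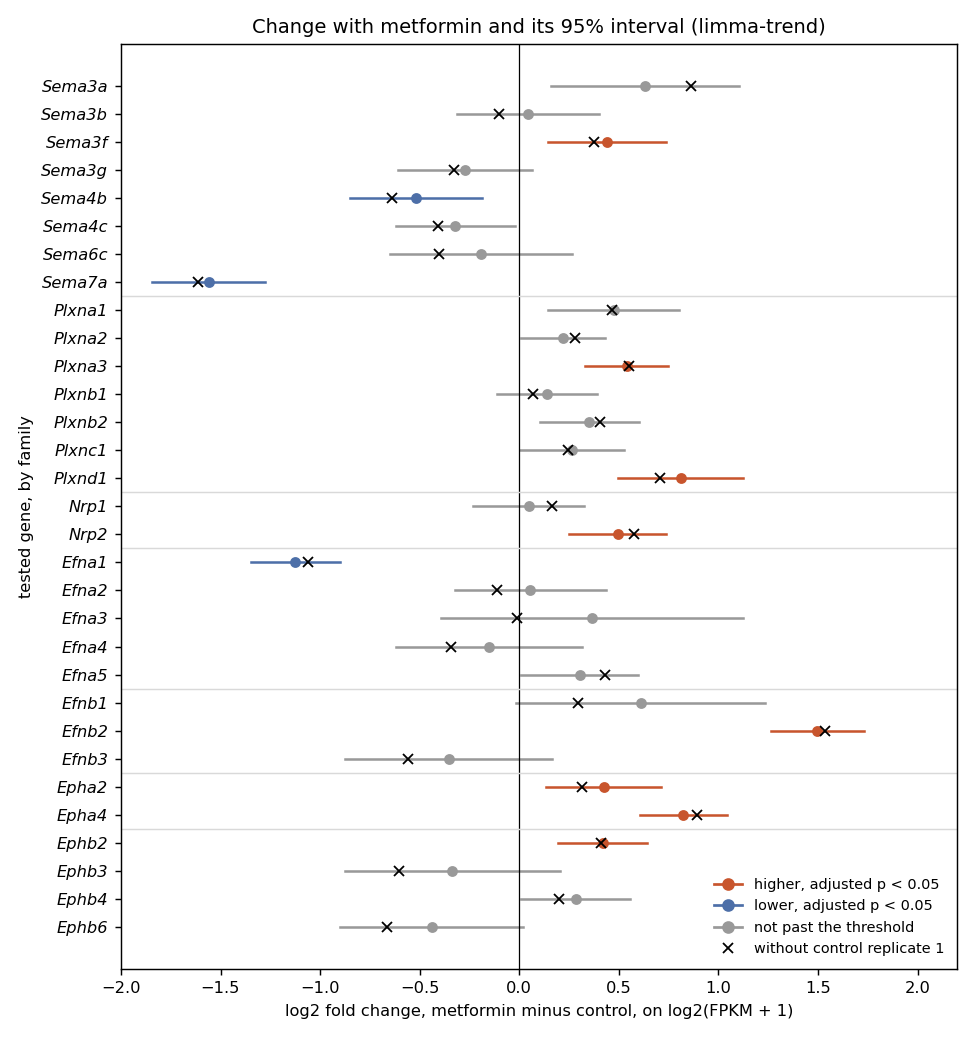
Log2 fold change of each tested gene with metformin on the log2(FPKM + 1) scale (horizontal axis), with its 95% interval from limma-trend (3 samples per group), ordered by family. Crosses give the value without control replicate 1. Efnb2 lies farthest to the right at 1.50 and Sema7a farthest to the left at -1.56, and their crosses stay close to the points.

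The libraries held 18399861 to 20652437 recovered reads in the control group and 19256672 to 22111790 with metformin, so 3 reads are at most 1.6e-05% of a sample. Osteoblast markers were present, with Runx2 at a mean of 30.5 FPKM and Sp7 at 41.6 FPKM in the controls, and all 10 osteoblast markers examined were tested. Markers of endothelium, where several of these guidance genes are also known to act, were near 0, with Pecam1 at 3 to 12 reads, Cdh5 at 0 to 3 and Kdr at 0 to 1 in a sample. The endothelial list summed to 0.439 to 0.777 FPKM in the controls and 0.723 to 1.10 FPKM with metformin, and Vwf was its single tested gene of 6. The list of neurons and glia had 0 of 7 genes tested, with Snap25 and Sox10 at 0 in every sample, and summed to 0.739 to 0.958 FPKM in the controls and 0.977 to 1.02 FPKM with metformin. The other marker lists moved in part with the groups. Of the 10 osteoblast genes 2 were higher, against 13.2% of all tested genes, and 3 were lower, against 9.28%. The 10 genes summed to 11478 to 13483 FPKM in the controls and 8165 to 8660 FPKM with metformin. The macrophage and osteoclast list had 2 of 7 genes tested, Ctsk and Cd68, both lower, against 9.28% of all tested genes. Its sums were 245 to 273 FPKM in the controls and 150 to 163 FPKM with metformin, almost all from Ctsk. Acp5 and Calcr had no read in any sample. The chondrocyte list had 1 of 3 tested genes lower (Col10a1), against 9.28% of all tested genes. The adipocyte list and the smooth muscle and pericyte list had 1 tested gene each, which did not pass. The part of these lists in the results below was not tested. Control replicate 1 stood apart from the other controls, with Pearson correlations of log2 values across genes of 0.960 and 0.952 with them, where they had 0.988 with each other. Genes of these families whose call changes without that library are given with and without it.

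Efnb2, Epha4, Plxnd1, Plxna3 and Sema7a stayed past the adjusted p threshold in every other fit. Their RefSeq start coincides with the 5′ end in the deposited table. Efna1 was kept too, but its RefSeq start lay 191 bases from that end. Promoters are shown here for Efnb2, Epha4, Plxnd1 and Sema7a, chosen after their values were seen. They are the 250 bases before the RefSeq start (build GRCm38.p6), 5′ to 3′ on the strand of the gene, for the ligand Efnb2 (chr8:8661243-8661492, minus strand), its receptor Epha4 (chr1:77515089-77515338, minus strand), the plexin gene Plxnd1 (chr6:115995006-115995255, minus strand) and the semaphorin gene Sema7a (chr9:57939862-57940111, plus strand). Capitals mark matches on either strand to the letters of the GC box (GGGCGG), the CCAAT box (CCAAT) and the TATA box (TATAAA).
Efnb2: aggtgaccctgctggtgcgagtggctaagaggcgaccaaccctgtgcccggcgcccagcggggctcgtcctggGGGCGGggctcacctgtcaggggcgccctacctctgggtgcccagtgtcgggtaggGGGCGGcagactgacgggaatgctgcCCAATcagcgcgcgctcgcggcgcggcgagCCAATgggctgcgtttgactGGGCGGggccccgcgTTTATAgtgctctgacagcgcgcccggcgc
Epha4: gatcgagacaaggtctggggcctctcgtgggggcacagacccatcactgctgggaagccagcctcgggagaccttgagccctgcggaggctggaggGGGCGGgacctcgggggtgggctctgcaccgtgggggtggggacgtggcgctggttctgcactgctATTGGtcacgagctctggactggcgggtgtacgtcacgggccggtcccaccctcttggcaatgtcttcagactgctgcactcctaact
Plxnd1: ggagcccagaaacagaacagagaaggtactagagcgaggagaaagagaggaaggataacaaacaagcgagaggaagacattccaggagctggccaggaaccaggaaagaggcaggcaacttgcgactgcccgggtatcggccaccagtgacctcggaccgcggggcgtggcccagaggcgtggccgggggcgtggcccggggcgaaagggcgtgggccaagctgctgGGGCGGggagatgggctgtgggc
Sema7a: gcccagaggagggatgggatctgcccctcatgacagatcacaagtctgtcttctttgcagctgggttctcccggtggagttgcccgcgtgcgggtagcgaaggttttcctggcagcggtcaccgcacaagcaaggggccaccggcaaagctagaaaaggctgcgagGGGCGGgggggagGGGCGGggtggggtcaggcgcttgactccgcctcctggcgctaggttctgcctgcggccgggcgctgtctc

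The 4 promoters each held GGGCGG, with 3 matches in Efnb2, 2 in Sema7a and 1 each in Epha4 and Plxnd1, so genes that rose and the gene that fell were alike in this. A RefSeq promoter was found for 47 of the 53 genes, and 36 of them (76.6%) held GGGCGG, against 42.6% of 21263 promoters of protein-coding genes. The RefSeq start nearest to the deposited 5′ end was used, whatever its distance. It coincided with that end for 22 of the 47, but lay 271370 bases away for Sema3a and 37064 for Sema4d. The CCAAT box was in 31.9% of the 47 promoters and in 35.4% of the protein-coding promoters, and TATAAA was in 1 promoter, that of Efnb2 (2.13% against 11.6%). The other motifs searched were the E-box CACGTG (2 of 47 promoters, against 6.63%), the AP-1 site TGACTCA (1, Sema4c, against 4.06%) and the CRE TGACGTCA (1, Epha2, against 1.92%). The median GC content of these promoters was 64.4%, against 55.6% for protein-coding genes, and its part in the motif shares was not tested. A match describes letters in this window and is not a binding site.

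Among the ephrins, the ligands of Eph receptors, a B-type ligand rose and an A-type ligand fell. Efnb2 encodes ephrin-B2 and lies on chromosome 8 (8617434 to 8661242, GRCm38). It had 2.56, 2.53 and 2.05 FPKM in the controls and 8.70, 8.96 and 7.94 FPKM with metformin, so that every metformin sample was at least 3 times as high as any control. Its mean was 3.58-fold higher, and the log2 change was 1.50 with a standard error (SE) of 0.10 (limma-trend adjusted p = 0.000177). Efna1, which encodes ephrin-A1 (chromosome 3, 89271733 to 89281142), had 17.9, 14.9 and 16.1 FPKM in the controls and 6.55, 7.15 and 7.04 FPKM with metformin. The groups were far apart, and the mean was 2.35 times as high in the controls as with metformin (log2 change -1.12, SE 0.09, limma-trend adjusted p = 0.000397).

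The most abundant ephrin was Efnb1 (ephrin-B1), with 29.9, 55.8 and 61.9 FPKM in the controls and 75.4, 74.4 and 67.1 FPKM with metformin. All metformin samples were above all controls, but control replicate 1 was far below the other controls, and the log2 fold change of 0.61 (95% interval -0.015 to 1.23) did not pass the threshold (adjusted p = 0.148 by limma-trend). Without control replicate 1 it was 0.29 and passed (limma-trend adjusted p = 0.0242). When each library was corrected for GC content, with all samples kept, it was 0.54 and passed (limma-trend adjusted p = 0.0258). Efna5 had 15.4, 12.002 and 11.2 FPKM in the controls and 16.0, 15.9 and 16.0 FPKM with metformin. It had adjusted p = 0.127 for all samples and adjusted p = 0.00161 without control replicate 1, by limma-trend. With all samples and the GC correction it passed (limma-trend adjusted p = 0.0327). With a block for replicate number added to that correction it did not (limma-trend adjusted p = 0.0768). Efna2, an A-type ligand known from osteoclasts, had overlapping groups, with 2.72, 4.77 and 3.77 FPKM in the controls and 3.74, 3.96 and 3.88 FPKM with metformin. Its log2 fold change was 0.054 (95% interval -0.33 to 0.43). Efna3, Efna4 and Efnb3 had overlapping groups too, and Efna3 had 2 reads in control replicate 1 against 52 and 76 in the other controls. Efnb3 had a log2 fold change of -0.35 with all samples (limma-trend adjusted p = 0.293). Without control replicate 1 its log2 fold change was -0.56 and passed (limma-trend adjusted p = 0.0379). Efna1, Efna3 and Efna4 lie within 66.3 kb of chromosome 3, and of these neighbours Efna1 alone passed the threshold, with a log2 fold change of 0.36 for Efna3 and -0.15 for Efna4.

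Of the 9 EphA receptors, 2 were tested and both were higher, against 13.2% of all tested genes. Epha4, a receptor that binds ephrins of both types (chromosome 1, 77367185 to 77515088), had 3.75, 3.05 and 3.19 FPKM in the controls and 6.71, 6.91 and 6.32 FPKM with metformin. The groups were well separated, with a 1.997-fold higher mean (log2 change 0.82, SE 0.09, limma-trend adjusted p = 0.00136). Epha2, a receptor of ephrin-A1 (chromosome 4, 141301240 to 141329384), was the most abundant Eph receptor, with 32.6, 38.7 and 43.6 FPKM in the controls and 51.4, 53.8 and 49.1 FPKM with metformin. Its groups did not overlap, and the log2 change was 0.42 (SE 0.12, limma-trend adjusted p = 0.0482). It passed in 2 of the 6 leave-one-out fits, each without 1 sample. The ligand Efna1 and its receptor Epha2 thus moved in opposite directions.

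Of the 5 EphB receptors, 4 were tested and 1 was higher, against 13.2% of all tested genes. Ephb2, a receptor of B-type ephrins (chromosome 4, 136647539 to 136835988), had 5.69, 5.27 and 6.41 FPKM in the controls and 8.05, 8.499 and 7.62 FPKM with metformin. All metformin samples were above all controls (log2 change 0.42, SE 0.09, limma-trend adjusted p = 0.0212), and it passed in 2 of the 6 leave-one-out fits. Ephb4, the main partner of ephrin-B2, had 12.3, 13.3 and 16.5 FPKM in the controls and 16.9, 17.4 and 17.3 FPKM with metformin. These groups did not overlap but lay close together, and the log2 fold change of 0.28 (95% interval 0.0099 to 0.56) did not pass (adjusted p = 0.128 by limma-trend). Ephb3 and Ephb6, the latter a receptor without kinase activity, were lowest in control replicate 1 among the controls, with 8.51 FPKM for Ephb3 and 7.65 FPKM for Ephb6. The other controls had 14.3 and 17.0 FPKM for Ephb3 and 11.8 and 13.7 FPKM for Ephb6, while the metformin samples had 9.58 to 10.3 FPKM and 7.17 to 8.04 FPKM. With all samples and no correction neither passed (adjusted p = 0.335 and 0.155 by limma-trend). Without control replicate 1 both were lower, with log2 changes of -0.60 and -0.66 (limma-trend adjusted p = 0.00197 and 0.00133). With all samples corrected for GC content both were lower too, with log2 changes of -0.40 and -0.52 (limma-trend adjusted p = 0.0453 and 0.00202).

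All 7 tested plexins, receptors of semaphorins, had positive log2 fold changes. Of the 7, 2 were higher past the threshold, against 13.2% of all tested genes. Plxnd1, the receptor of semaphorin 3E (chromosome 6, 115954811 to 115995005), had 19.0, 21.04 and 26.8 FPKM in the controls and 39.8, 40.5 and 38.2 FPKM with metformin. Its metformin samples varied little and were all above the controls, with a 1.77-fold higher mean (log2 change 0.81, SE 0.13, limma-trend adjusted p = 0.0064). Plxna3, which signals for class 3 semaphorins bound to neuropilins (chromosome X, 74329066 to 74344689), had 3.12, 2.93 and 3.14 FPKM in the controls and 4.70, 5.43 and 4.61 FPKM with metformin. The groups were separate, and the mean was 1.60-fold higher (log2 change 0.54, SE 0.09, limma-trend adjusted p = 0.0064).

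Plxnb2, a receptor of class 4 semaphorins, had the highest FPKM of the 53 genes, with 69.1, 57.3 and 67.1 FPKM in the controls and 82.7, 86.5 and 78.1 FPKM with metformin. Plxna1, a partner of neuropilin-1, had 37.7, 32.0 and 45.5 FPKM in the controls and 53.6, 56.4 and 49.7 FPKM with metformin. Neither had overlapping groups, and both were just outside the threshold, with log2 fold changes of 0.35 for Plxnb2 (adjusted p = 0.0535) and 0.47 for Plxna1 (adjusted p = 0.0525) by limma-trend. Without control replicate 1 both passed (limma-trend adjusted p = 0.0102 and 0.0399). When each library was instead corrected for GC content, neither passed (limma-trend adjusted p = 0.218 and 0.0795). Plxna2 went from 8.60 ± 0.80 to 10.2 ± 0.072 FPKM (SD, n = 3). It did not pass with all samples (limma-trend adjusted p = 0.123) and passed without control replicate 1 (limma-trend adjusted p = 0.012). Plxnb1, the receptor of semaphorin 4D, had 2.43, 2.83 and 3.16 FPKM in the controls and 2.93, 3.15 and 3.5 FPKM with metformin, with overlapping groups and a 95% interval of -0.11 to 0.39 on the log2 scale. Plxnc1, the plexin that binds semaphorin 7A, was low, with 0.413, 0.565 and 0.402 FPKM in the controls and 0.761, 0.632 and 0.873 FPKM with metformin, and did not pass (log2 fold change 0.27, adjusted p = 0.133 by limma-trend).

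Of the neuropilins, Nrp2 rose and Nrp1 did not pass the threshold. Nrp2, a co-receptor favoured by semaphorin 3F (chromosome 1, 62703285 to 62818695), had 46.5, 37.7 and 40.6 FPKM in the controls and 58.3, 61.0 and 57.1 FPKM with metformin. All metformin samples were above all controls (log2 change 0.49, SE 0.10, limma-trend adjusted p = 0.0155), and it passed in 3 of the 6 leave-one-out fits. Nrp1, the co-receptor of semaphorin 3A, had 25.9, 20.2 and 20.1 FPKM in the controls and 21.9, 23.5 and 22.7 FPKM with metformin. Its metformin samples lay within the range of the controls, and the 95% interval of the log2 fold change was -0.23 to 0.33.

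**Figure D2:**
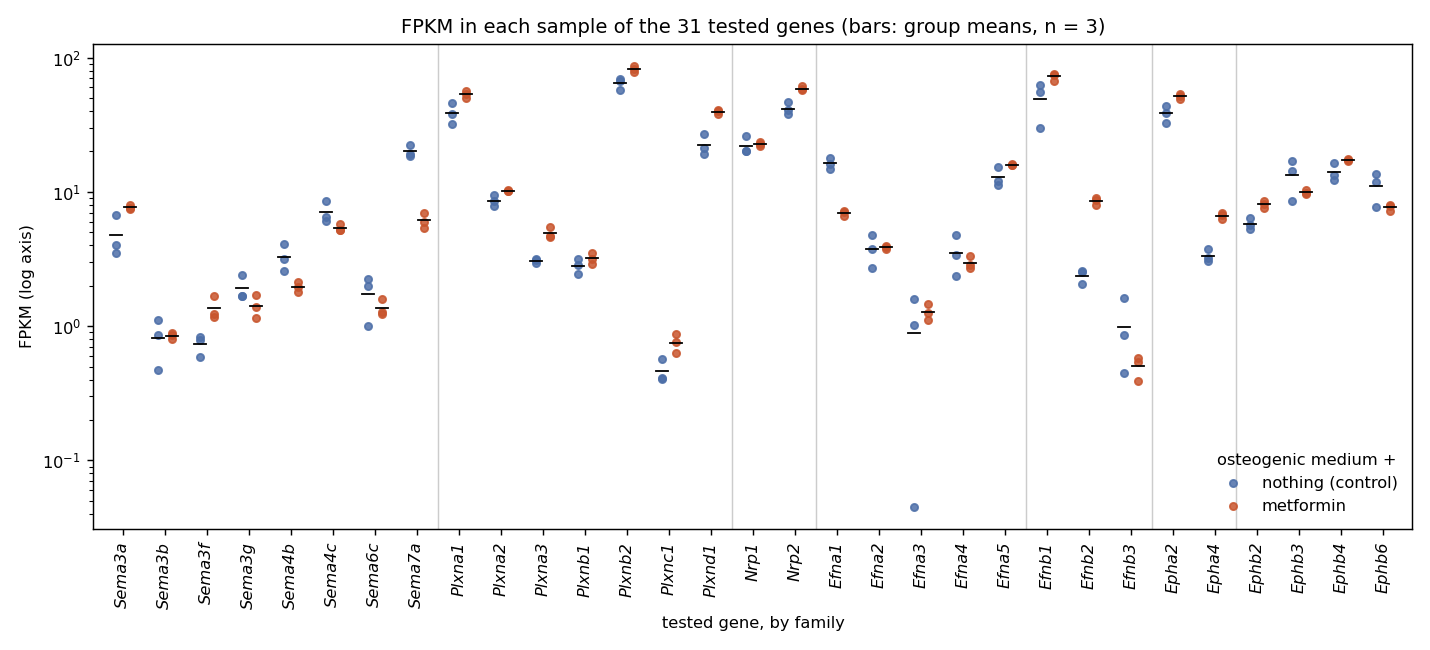
FPKM (log axis) of the 31 tested genes in each of the 3 control and 3 metformin samples, ordered by family, with black bars at the group means. Efnb2 and Epha4 stand above their controls, Sema7a and Efna1 stand below, and the lowest point is Efna3 in control replicate 1 (0.045 FPKM).

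The semaphorins moved both ways. Sema7a encodes a semaphorin held at the membrane by a lipid anchor, which binds plexin-C1 and integrin β1 (chromosome 9, 57940112 to 57962865). It was the most abundant semaphorin of the controls, with 18.5, 19.1 and 22.5 FPKM, and had 7.01, 5.97 and 5.42 FPKM with metformin. The lowest control was more than double the highest metformin sample, and the control mean was 3.26 times as high (log2 change -1.56, SE 0.12, limma-trend adjusted p = 0.000296). With metformin the mean of Sema7a, 6.13 ± 0.81 FPKM (SD, n = 3), was below that of Sema3a, 7.67 ± 0.22 FPKM. Sema4b, a transmembrane semaphorin (chromosome 7, 80186841 to 80226527), had 2.59, 4.09 and 3.16 FPKM in the controls and 1.96, 1.80 and 2.12 FPKM with metformin. Its groups did not overlap (log2 change -0.52, SE 0.14, limma-trend adjusted p = 0.0397), and it passed in 1 of the 6 leave-one-out fits. Sema4c had 6.07, 6.55 and 8.52 FPKM in the controls and 5.72, 5.24 and 5.23 FPKM with metformin, and did not pass with all samples (adjusted p = 0.118 by limma-trend). It was lower without control replicate 1 (limma-trend adjusted p = 0.0237) and with the GC correction of all samples (limma-trend adjusted p = 0.0168).

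Of the secreted class 3 semaphorins 4 were tested, and 1 of them, Sema3f, was higher, against 13.2% of all tested genes. Sema3a, known to act on both osteoblasts and osteoclasts, had 6.72, 4.04 and 3.49 FPKM in the controls and 7.52, 7.56 and 7.93 FPKM with metformin. The groups did not overlap, but control replicate 1 was much nearer to the metformin samples than the other controls were. The log2 fold change was 0.63 (95% interval 0.16 to 1.10, adjusted p = 0.0628 by limma-trend), and without control replicate 1 it was 0.86 (adjusted p = 0.000301). With all samples and the GC correction it was 0.64 and passed (limma-trend adjusted p = 0.00452). Sema3f (chromosome 9, 107681500 to 107710475) had 0.590, 0.826 and 0.793 FPKM in the controls and 1.69, 1.17 and 1.22 FPKM with metformin. It passed the threshold narrowly (log2 change 0.44, SE 0.12, limma-trend adjusted p = 0.0470), and it passed in 1 of the 6 leave-one-out fits. Sema3b, which lies with Sema3f within 113 kb of chromosome 9, had overlapping groups with 0.470, 1.12 and 0.852 FPKM in the controls and 0.802, 0.884 and 0.860 FPKM with metformin. Sema3g and Sema6c did not pass with all samples, with log2 fold changes of -0.27 and -0.19. Sema6c had an adjusted p of 0.522 there and was lower without control replicate 1 (log2 fold change -0.40, adjusted p = 0.0207), by limma-trend. With all samples and the GC correction Sema6c was lower too (limma-trend adjusted p = 0.0396).

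Among the 22 genes under 0.5 FPKM, 7 had no read in any sample, namely Epha3, Epha5, Epha6, Epha7, Ephb1, Sema4f and Sema5b, and 10 more had no sample above 14 reads. A count of 0 allows up to 3 reads in a sample. Sema4d, the ligand of plexin-B1, had 5, 2 and 2 reads in the controls and 1, 1 and 4 with metformin, so that a difference was not detectable at this depth. To test low genes on their reads, voom, limma's method for counts, was run on all 17468 genes with at least 10 reads over the 6 samples, an alternative chosen after the data were seen. By voom 13 of the 45 genes of these families with that many reads were higher, against 10.9% of all genes, and 4 were lower, against 6.81%. Plxna1, Plxnb2 and Sema3a, which did not pass by limma-trend with all samples, were among the higher genes (voom adjusted p = 0.0303, 0.0356 and 0.0339).

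Sema3e, the ligand of plexin-D1 (chromosome 5, 14025276 to 14256689), had 13, 13 and 8 reads in the controls and 78, 95 and 77 reads with metformin. Its level stayed low, from 0.062 ± 0.017 to 0.44 ± 0.026 FPKM (SD, n = 3), and every metformin sample held at least 5 times the reads of any control. The FPKM mean was 7.04-fold higher, and the log2 change by voom was 2.82 (SE 0.32, voom adjusted p = 0.000382). Sema3e and its receptor Plxnd1 thus both rose. Sema3c, another class 3 gene of the same chromosome, had 34, 24 and 19 reads in the controls and 60, 83 and 83 reads with metformin, and was higher by voom (log2 change 1.53, SE 0.31, voom adjusted p = 0.0085). Sema5a, which has thrombospondin repeats, had 175, 122 and 109 reads in the controls and 41, 60 and 49 reads with metformin. It was lower by voom (log2 change -1.44, SE 0.28, voom adjusted p = 0.00785, while limma-trend with no filter on low values gave adjusted p = 0.0664), with no overlap between the groups.

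**Figure D3:**
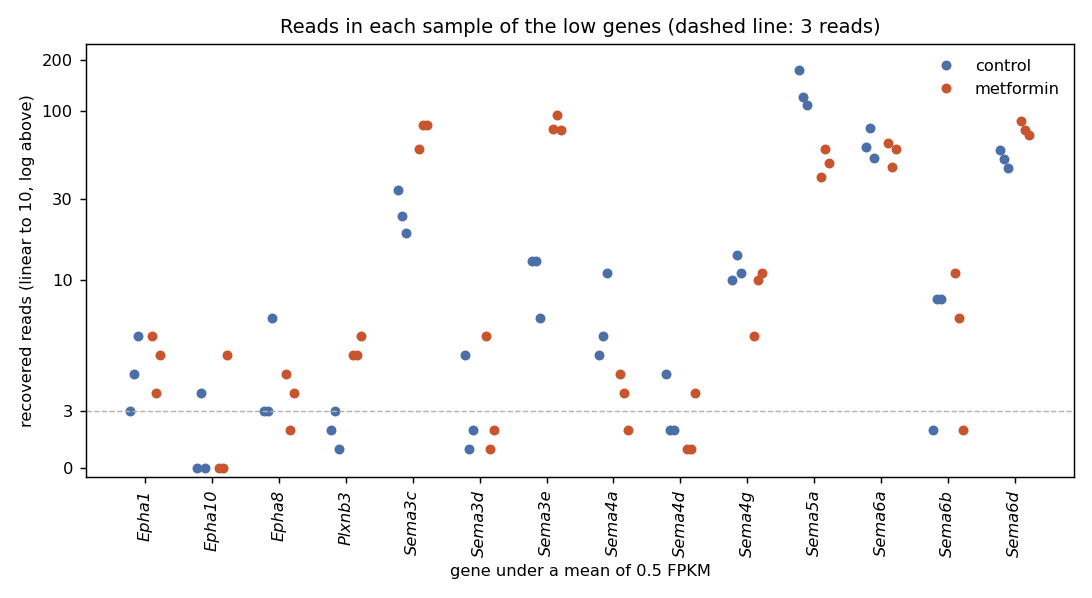
Recovered reads in each sample (vertical axis, linear to 10 and logarithmic above) of the 14 genes under a mean of 0.5 FPKM with at least 10 reads over the 6 samples. Sema3c and Sema3e are higher and Sema5a is lower in all 3 metformin samples than in all 3 controls.

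Sema3d, Sema3a, Sema3e and Sema3c lie in this order within 5.35 Mb of chromosome 5. Of these neighbours Sema3a, Sema3e and Sema3c had no overlap between groups, while Sema3d had at most 7 reads in a sample. Sema6a and Sema6d, transmembrane semaphorins, had 53 to 80 and 46 to 59 reads in the controls and 47 to 65 and 72 to 87 with metformin. Neither passed by voom (adjusted p = 0.607 and 0.127).

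FPKM values were also summed over the genes of each family. The semaphorins summed to 39.4, 40.9 and 45.3 FPKM in the controls and 29.7, 27.0 and 27.8 FPKM with metformin, and Sema7a was the largest contributor to the control sums. The class 3 genes alone summed to 8.49 ± 1.18 FPKM in the controls and 12.3 ± 0.49 FPKM with metformin (SD, n = 3). The plexins summed to 141.2, 124 and 155 FPKM in the controls and 195, 203 and 185 FPKM with metformin. The A-type ephrins summed to 38.4, 37.4 and 36.0 FPKM in the controls and 30.2, 30.96 and 31.6 FPKM with metformin, while the B-type ephrins summed to 32.9, 59.2 and 65.6 FPKM and then 84.7, 83.8 and 75.6 FPKM. In each of these sums the groups did not overlap, nor did they for the neuropilins (63.7 ± 7.67 and 81.5 ± 2.59 FPKM, SD, n = 3) and the EphA receptors (41.8 ± 5.28 and 58.2 ± 2.56 FPKM). The low first control of the B-type ephrins is Efnb1 in control replicate 1. The EphB receptors summed to 44.2 ± 9.69 FPKM and 42.9 ± 1.23 FPKM and overlapped. These sums are descriptions and were not tested.

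**Figure D4:**
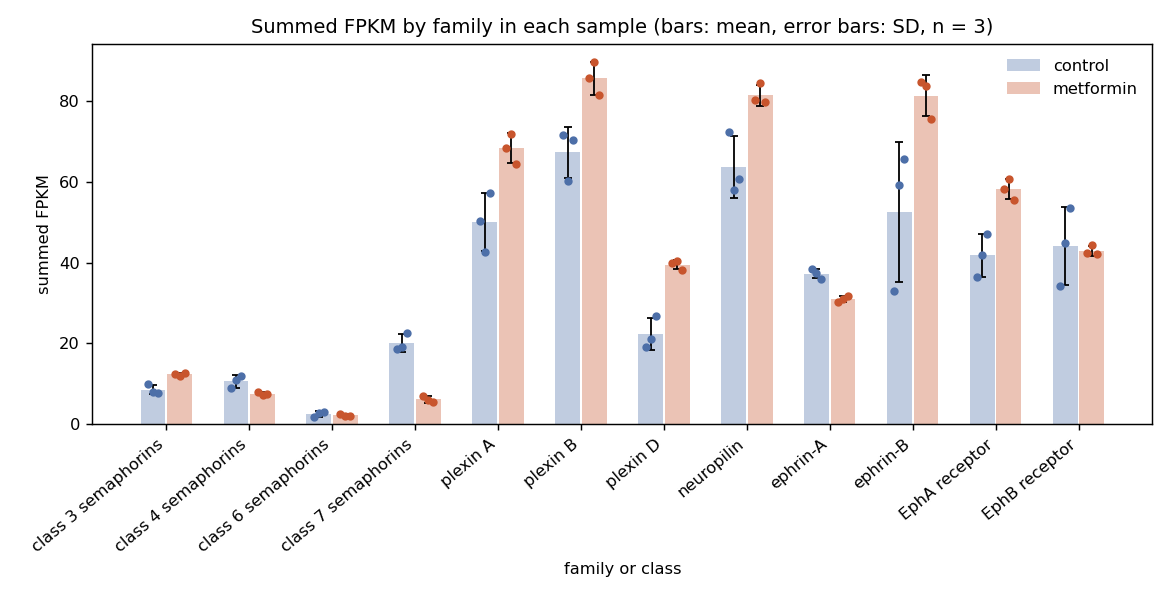
Summed FPKM of each family or semaphorin class (vertical axis) in the 3 control and 3 metformin samples, with bars at the mean and error bars of 1 SD. Class 7 semaphorins, which are Sema7a, fall from 20.02 to 6.13 FPKM, while plexin A, plexin B, plexin D and ephrin-B sums are higher with metformin.

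At the adjusted p threshold alone the calls of 6 genes, Efnb2, Epha4, Plxnd1, Plxna3, Sema7a and Efna1, were kept in all 14 other settings of the limma fit and in the voom fit. Under a block for replicate number 4 members were higher, against 9.16% of all tested genes, and 2 were lower, against 5.5%, and these were the same 6 genes. Without control replicate 1, 14 of the 31 were higher, against 23.4% of all tested genes, and 8 were lower, against 20.4%. The additional higher genes were Plxna1, Plxna2, Plxnb2, Sema3a, Efna5 and Efnb1, and the additional lower genes were Ephb3, Ephb6, Efnb3, Sema4c and Sema6c. Leaving out each other sample gave 4 to 9 higher, against 7.4, 7.44, 7.77, 9.9 and 12.4% of tested genes, and 2 lower each time, against 3.9, 4.08, 4.2, 5.84 and 8.31%. A log2 change of at least 1 in either direction beside the adjusted p threshold was seen in 3 of the 31 tested members, Efnb2, Sema7a and Efna1, against 5.02% of all tested genes.

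These families are rich in G and C, and control replicate 1 deviated with GC content. The median GC content of the longest transcript was 56.8% over the 31 genes and 49.5% over the tested genes with a value. The difference in log2(FPKM + 1) between control replicate 1 and the mean of the other controls had a Pearson correlation of -0.73 and a Spearman correlation of -0.69 with GC content across the 31 genes. Across all tested genes the correlations were -0.60 and -0.67. These points share the same 3 libraries and are a description. Sema3a, with the lowest GC content of the 31 (40.8%), was 0.70 higher in control replicate 1 than in the other controls, and Efnb1 (58.2%) was 0.95 lower. Efnb2 (50.4%), Efna1 (54.2%) and Sema7a (57.7%) differed by 0.12, 0.20 and -0.16. When each library was corrected for GC content, 10 of the 31 were higher, against 16.3% of all tested genes, and 7 were lower, against 19.2%, and Efnb2 and Sema7a had log2 changes of 1.45 and -1.63. With the block and this correction together 8 were higher, against 13.4%, and 6 lower, against 14.9%.

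**Figure D5:**
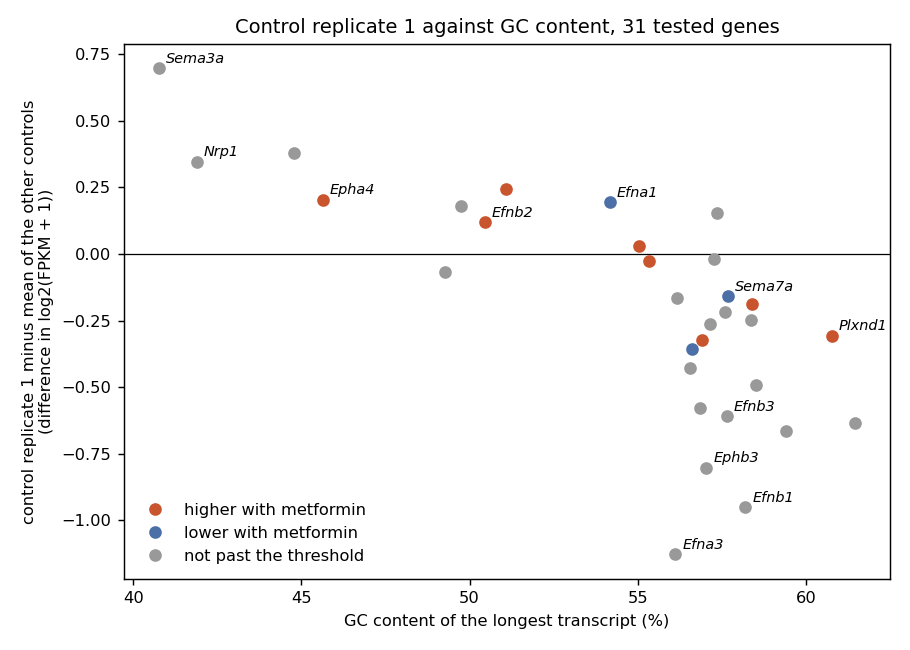
Difference in log2(FPKM + 1) between control replicate 1 and the mean of the other controls (vertical axis) against the GC content of the longest transcript (horizontal axis) for the 31 tested genes, coloured by their call with metformin. Sema3a lies at the upper left, and Efna3, Efnb1 and Ephb3 lie lowest at the right.

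Other genes could share reads with few of the called genes. Of the 31 tested genes 15 overlap another annotated gene, but no overlapping gene had a mean above 0.241 FPKM. Transcripts of other genes with at least 95% identity over 200 bases were found for Sema3a (Gm43431, 340 bases) and Plxnb1 (Gm7628, 261 bases) among the tested genes, so their reads are uncertain to that extent, and for none of the 11 called genes.

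The pathway around these receptors was described by 71 genes of plexin, neuropilin and Eph signalling, of which 56 were tested. With metformin 13 of the 56 were higher, against 13.2% of all tested genes, and 2 were lower, against 9.28%, and their median log2 fold change was 0.16. Under the replicate block 6 were higher, against 9.16%, and 1 was lower, against 5.5%. The largest rises were those of Dpysl3, Farp2 and Grb10. Dpysl3, a member of the collapsin response mediator family that acts after semaphorin 3A, had 4.48, 3.49 and 3.95 FPKM in the controls and 17.6, 20.5 and 18.2 FPKM with metformin (log2 fold change 1.99, adjusted p = 9.69e-05 by limma-trend). Farp2, an exchange factor that binds A-type plexins, went from 8.32, 5.06 and 6.59 FPKM to 14.1, 15.5 and 14.4 FPKM (log2 fold change 1.05, adjusted p = 0.00469). Grb10, an adaptor of receptor tyrosine kinases, went from 25.7, 17.7 and 15.9 FPKM to 40.01, 37.9 and 37.3 FPKM (log2 fold change 0.95, adjusted p = 0.00945). The lower genes were Rnd2, a small GTPase (log2 fold change -0.89, adjusted p = 0.00116), and Rasa1, a Ras GTPase-activating protein bound by EphB receptors (-0.43, adjusted p = 0.0459), which passed in 2 of the 6 leave-one-out fits. Dpysl2, Farp1, Mical2, Rnd1, Rnd3, Limk1, Kalrn, Sh3kbp1, Rras2 and Rhoa were the other higher genes, with log2 fold changes from 0.28 for Rhoa to 0.76 for Dpysl2.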

How the data were processed

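RNA sequencing was compared between 3 control samples and 3 metformin samples, grouped by their titles. The authors deposited 1 table of FPKM values with gene lengths in base pairs. Its unit is not named and was identified from the values: multiplied by gene length, 100% of the values above 0 in a sample fell on multiples of a single step (relative tolerance 0.001), and the multiples were taken as reads. The library size implied by the step was not the total of these reads. It was 19655718 against 18792236 in control replicate 3 and 18260074 against 18399861 in control replicate 1. How it was set is not known. No column of values was left unused, with 0 unmapped. The submitters' processing notes name Bowtie 0.12.2, mm8 and mm9 without a role. The table's coordinates equal those of GENCODE M21 (GRCm38) for 53499 of 54532 genes and for all 53 members. The aligner, counting tool and use of strand behind the table are not given in the sources used here, and the tool that the study used for testing was not used here.

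Limma 3.58.1 (R 4.3.3) was fitted with a trend on log2(FPKM + 1) over the 12681 genes whose mean FPKM reached 0.5. Voom used the recovered reads with trimmed-mean (TMM) factors computed in the script. On simulated reads of 12681 genes with 200 changed, limma-trend called 173 of them and 15 unchanged genes. The simulated log2 changes were all at least 1 in size, and every simulated library had the same spread. The simulation thus does not cover smaller changes or a deviating library such as control replicate 1. The members and lists were chosen with earlier results of these data known. Values in every sample are given for members past the threshold and for members known from bone cells. From the other lists the 3 largest changes each way are named among called genes without overlap. Other genes given with values, and the promoters shown, were chosen after their values were seen. GC content came from the longest GENCODE M21 transcript, promoters from RefSeq (GRCm38.p6), and near-identical transcripts from BLAST 2.17.0. Same-numbered samples did not deviate together, so the replicate block is an alternative. Levels and intervals cover these samples and counting error only.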

Additional observations from a re-analysis of the deposited data

How the results depend on the processing

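Counts are genes past the threshold by limma-trend, higher and then lower with metformin. Of the 31 members 8 and 3 passed. The higher members were 4 with the replicate block, 1 with a size limit of 1 on the log2 change and 13 with voom on all genes with at least 10 reads over the 6 samples (chosen after seeing the data). With scaling by total reads 6 members were higher, and Epha2 and Sema3f were not called (limma-trend adjusted p = 0.0755 and 0.0542). The lower members were 7 with the GC correction and 6 when this was joined to the replicate block. Over the 6 fits that each left out 1 sample, members ranged from 4 to 14 higher and from 2 to 8 lower, with both maxima without control replicate 1. Of the 11 calls 6 were kept with the replicate block and in each fit without a metformin sample, 7 without control replicate 2 and 9 without control replicate 3.

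All tested genes had 1670 higher and 1177 lower. The size limit of 1 gave 468 and 168, the replicate block gave 1161 and 698, the GC correction gave 2062 and 2433, and both together gave 1703 and 1888. Fits that left out 1 sample gave 938 to 2969 higher and 495 to 2590 lower. The GC correction moved the median log2 fold change of all tested genes by -0.045, and with it 19.2% of genes were lower and 16.3% higher. The signalling partners had 13 and 2, with 6 higher and 1 lower under the replicate block, 1 lower with no filter on low values and 4 lower with the GC correction, and ranged from 5 to 26 higher and 1 to 5 lower over the fits that left out 1 sample. The other guidance families had 7 and 1, with 0 lower under the replicate block (limma-trend, with Rgma not called) and 0 to 3 lower over the fits that left out 1 sample. The cause was not tested.

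Signs reversed for members that never passed. Efna2 was -0.023 and Sema3b -0.019 with the GC correction, with and without the replicate block. Over the fits that left out 1 sample Efna2 ranged from -0.11 to 0.20, Sema3b from -0.10 to 0.16, Efna3 from -0.013 to 0.64, Efna4 from -0.35 to 0.044 and Nrp1 from -0.013 to 0.16. As a check of the pairing, deviations from group means correlated by -0.053, 0.00027 and -0.055 across genes for replicate numbers 1, 2 and 3, so a call lost under the block is not read as a weaker change. Depth limits the members with few reads.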

Other observations

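A list of other guidance families held netrins, slits, repulsive guidance molecules and their receptors, with FLRT, teneurin, latrophilin and Srgap genes. Of its 37 genes, 35 were matched by symbol and 18 were tested. With metformin 7 of the 18 were higher, against 13.2% of all tested genes, and 1 was lower, against 9.28%, and their median log2 fold change was 0.21. Ntn1, which encodes the secreted ligand netrin-1, had 6.79, 8.22 and 9.77 FPKM in the controls and 18.5, 19.8 and 17.8 FPKM with metformin (log2 change 1.10, SE 0.13, limma-trend adjusted p = 0.0017). Its receptor gene Unc5b had 21.04, 20.3 and 23.4 FPKM in the controls and 45.6, 47.0 and 42.3 FPKM with metformin (log2 change 1.03, SE 0.09, limma-trend adjusted p = 0.000526). For both genes every metformin sample was above every control, and both passed in all 6 leave-one-out fits. Dcc, another netrin receptor, had no read in any sample, and Neo1, its relative, rose (log2 fold change 0.55, adjusted p = 0.00982 by limma-trend).

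Adgrl2, a latrophilin that binds FLRT and teneurin proteins, was higher with metformin (log2 change 0.86, limma-trend adjusted p = 0.000942). Slit2 and the slit receptor gene Robo2 rose at low levels, to means of 1.22 and 2.73 FPKM, with log2 fold changes of 0.62 and 0.56. Flrt3 completed the higher genes (0.48). The lower gene, Rgma, a ligand of neogenin, had 5.62, 6.42 and 6.51 FPKM in the controls and 4.37, 4.54 and 4.49 FPKM with metformin (log2 fold change -0.39, adjusted p = 0.0178 by limma-trend), and it passed in 2 of the 6 leave-one-out fits.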
